A study of Mus musculus with 9 samples.

Results

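Histone genes of the replication-dependent clusters were examined in mouse mammary cell preparations at 3 stages of isolation. Members were all array rows with a single gene symbol beginning H1f, H2ac, H2bc, H3c or H4c and a number, the current names of the Hist1h to Hist4h genes. This gave 30 of 19938 genes, with 8 for the linker histone H1, 4 for H2A, 9 for H2B, 3 for H3 and 6 for H4. Of the 30, 27 are genes of the histone clusters. H1f7 (a spermatid linker histone), H1f8 (the oocyte linker histone) and H1f10 (a replacement linker histone made outside S phase) matched by name only. H1f6 (the testis linker histone), H2ac1 and H2bc1 (the testis H2A and H2B) lie in the clusters but are known from germ cells.

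The samples were mammary gland epithelial cells from wild-type C3H female mice aged 8 to 9 weeks, all freed from fat with collagenase. Untrypsinized cells had collagenase alone, trypsinized cells were also digested with trypsin, and mock sorted cells were, after trypsin, also run through a fluorescence-activated sorter as a mock sort. There were 3 arrays per group, hybridised with biotin-labelled total RNA. The labels call the arrays biological replicates without naming the animals or saying whether animals were pooled, so the p-values speak of the spread among these arrays, which may in part be technical.

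Replication-dependent histone genes supply the histones that package newly made DNA, and their transcripts accumulate in S phase and are degraded when it ends. Most of these messages carry no poly(A) tail. They end in a stem-loop bound by Slbp, are cleaved by a complex guided by the U7 small nuclear ribonucleoprotein, and are removed after uridylation of their end. H2A, H2B, H3 and H4 form the nucleosome core and H1 binds the linker DNA. Many members encode near-identical proteins from near-identical coding sequences.

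That similarity limits what an array can separate. A further 26 rows each name several histone genes, and they are given apart from the members. Rows with a single symbol may share sequence with other copies as well, so a value of a named member is uncertain as to the copy that gave it. All 30 members had 1 row each.

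Promoters of the members are shown because the genes are known to be driven by short subfamily elements, and because several H2B members were higher after the isolation steps in the values given further on. RefSeq promoter windows (GRCm38.p6) of 250 bases before to 50 bases after the gene start were matched by symbol for 26 of 30 members. H2bc4, H2bc21, H3c7 and H4c14 had no entry. Shown are the 150 bases before the start, 5′ to 3′ on the gene's strand. Capitals mark, on either strand, the TATA box TATAAA, the CCAAT box, the octamer ATTTGCAT, the H1 box AAACACA and GGTCCG, a hexamer of H4 promoters. H2bc14, H2bc8 and H2bc9 are H2B genes with higher levels after isolation steps, and H2bc3 and H2bc18 are H2B genes that did not pass the test. H4c9 and H4c4, and H1f6 and H1f2, are the same kind of contrast within H4 and H1.
H2bc14 (chr13:21721894-21722043, + strand): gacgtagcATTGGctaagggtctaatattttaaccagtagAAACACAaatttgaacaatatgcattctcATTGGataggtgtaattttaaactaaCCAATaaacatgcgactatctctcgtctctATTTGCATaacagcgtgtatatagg
H2bc8 (chr13:23571250-23571399, + strand): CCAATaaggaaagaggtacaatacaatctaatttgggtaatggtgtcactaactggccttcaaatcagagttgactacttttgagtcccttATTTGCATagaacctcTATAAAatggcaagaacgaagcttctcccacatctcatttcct
H2bc9 (chr13:23543445-23543594, - strand): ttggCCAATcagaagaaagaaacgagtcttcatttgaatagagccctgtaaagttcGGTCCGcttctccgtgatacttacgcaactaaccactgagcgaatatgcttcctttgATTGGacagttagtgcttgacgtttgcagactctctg
H2bc3 (chr13:23746584-23746733, + strand): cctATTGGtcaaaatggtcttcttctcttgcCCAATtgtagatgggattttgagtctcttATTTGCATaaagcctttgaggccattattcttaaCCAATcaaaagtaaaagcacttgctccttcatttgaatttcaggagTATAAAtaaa
H2bc18 (chr3:96269550-96269699, + strand): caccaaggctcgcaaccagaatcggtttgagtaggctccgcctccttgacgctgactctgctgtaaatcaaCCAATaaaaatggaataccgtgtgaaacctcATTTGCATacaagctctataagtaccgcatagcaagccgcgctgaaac
H4c9 (chr13:22041363-22041512, - strand): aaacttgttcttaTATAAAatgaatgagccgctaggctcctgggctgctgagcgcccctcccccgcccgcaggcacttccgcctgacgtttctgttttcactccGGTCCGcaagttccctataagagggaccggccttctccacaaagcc
H4c4 (chr13:23581418-23581567, + strand): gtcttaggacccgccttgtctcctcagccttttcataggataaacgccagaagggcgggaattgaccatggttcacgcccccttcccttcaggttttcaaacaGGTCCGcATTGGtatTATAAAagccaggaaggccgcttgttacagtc
H1f6 (chr13:23695661-23695810, + strand): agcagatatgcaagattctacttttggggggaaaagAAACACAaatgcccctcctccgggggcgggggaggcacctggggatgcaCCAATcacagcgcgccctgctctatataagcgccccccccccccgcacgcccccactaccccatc
H1f2 (chr13:23738657-23738806, + strand): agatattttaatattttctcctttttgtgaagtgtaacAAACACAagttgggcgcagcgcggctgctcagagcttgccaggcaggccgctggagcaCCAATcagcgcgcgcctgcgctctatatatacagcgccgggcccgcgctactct

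The octamer stood in 5 of 7 H2B and 3 of 4 H2A windows, against 1.74% of 32851 windows in the table. Within H2B it was found in H2bc14 and H2bc8, which passed the test, and also in H2bc3 and H2bc18, which did not, and it was not in the window of H2bc9. GGTCCG stood in 5 of 5 H4 windows, including both H4c9 and H4c4, against 8.25% of all windows. The H1 box was found in 4 of 8 H1 windows, H1f6 and H1f2 among them, against 7.18%. CCAAT was found in 21 of 26 members and TATAAA in 15 of 26, against 37.4% and 13.6% of all windows. None of these motifs contains another. A match describes letters in a window. The octamer within H2B, GGTCCG within H4 and the H1 box within H1 stood in members that passed the test and in members that did not. Other motifs did not all do so. TATAAA within H1 was only in H1f1, H1f3 and H1f5, and CCAAT within H4 only in H4c3 and H4c4, none of which passed. GGTCCG within H2B was only in H2bc9, which passed.

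The correlation of log2 intensities over the 19938 genes was 0.993 to 0.997 within groups and 0.981 to 0.995 between them. Epithelial markers were present on every array, but their sums moved with the groups. Over 12 luminal markers the summed intensity was 94604 to 97748 in untrypsinized, 101535 to 101941 in trypsinized and 103681 to 104689 in mock sorted arrays. Over 10 basal markers it was 61429 to 63088, 58294 to 59583 and 53703 to 55113 in the same order. Other cell types moved with the groups as well. All 12 endothelial markers were called lower after the mock sort (adjusted p at most 0.05, change of 1.5-fold or more) against both other groups, and 3 of 12 after trypsin. Their summed intensity was 32036 to 37053 in untrypsinized, 25034 to 25302 in trypsinized and 11063 to 13450 in mock sorted arrays. Over 13 lymphocyte markers the sum was 4985 to 6043, 8027 to 22023 and 7041 to 19221 in the same order, highest in replicate 1 of the trypsinized and mock sorted groups, and 2 of 13 were called higher in each of these groups than in untrypsinized cells. Fibroblast, adipocyte and macrophage lists had 1 of 10, 3 of 9 and 2 of 10 markers called lower after both steps. With no minimum fold at the same adjusted p, the rule of most histone counts below, more markers passed. After both steps 9 of 10 fibroblast, 7 of 10 basal, 4 of 9 adipocyte and 4 of 10 macrophage markers were lower. In these lists 0 were higher. Of 12 luminal markers 6 were higher and 1 lower. Of all genes, 21% were higher and 18% lower. After trypsin 11 of 12 endothelial markers were lower, against 11.5% of genes. No marker of these lists was at 0 on any array. The part of these cell types in the histone values was not tested. In bulk RNA, fewer cells of a type and less RNA per cell cannot be told apart.

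Few of all genes were called by the rule with a minimum fold, and the count of 0 among 30 histone members is near that share. In none of the 3 comparisons did any of the 30 members reach both an adjusted p of at most 0.05 and a 1.5-fold change (limma over all 19938 genes, log2 of intensity plus 1). At an unadjusted p under 0.05 with the same fold, 0 members were called as well. Among all genes, 1.46% were called for trypsinized against untrypsinized (0.532% higher, 0.933% lower). For mock sorted against trypsinized 1.19% were called (0.0251% higher, 1.17% lower), and for mock sorted against untrypsinized 4.47% (1.08% higher, 3.4% lower). Small shifts could be measured. The 95% confidence interval of the change, not adjusted for the number of genes, lay within 1.5-fold in either direction for 30, 29 and 27 members in these comparisons, as it did for 90.9%, 93.7% and 86% of all genes. H3c7 (in both comparisons with mock sorted cells), H1f6 and H1f8 had intervals that reached past 1.5-fold. Below, rose and fell mean an adjusted p of 0.05 or below with no minimum fold, a count added after seeing the data.

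**Figure D1:**
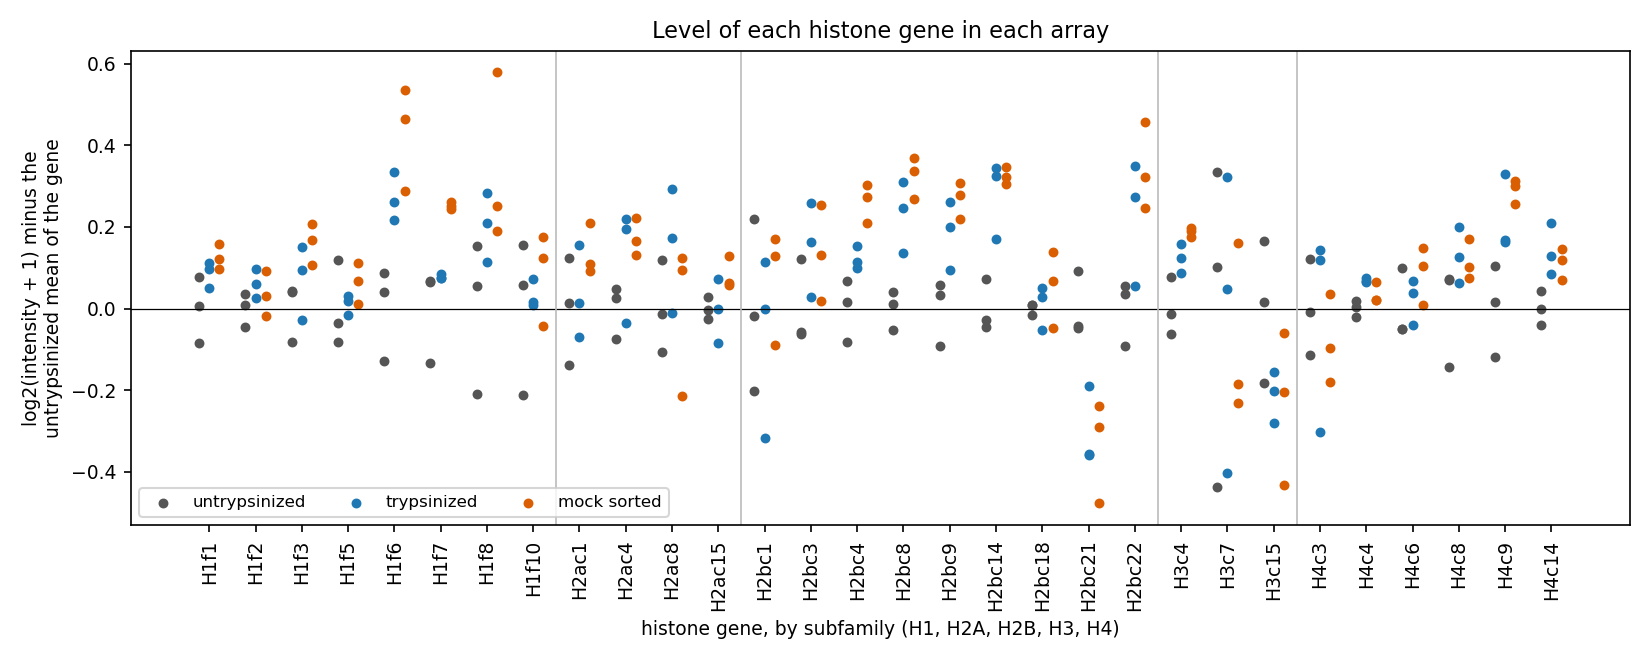
Each point is 1 array's log2(intensity + 1) for a histone gene minus the mean of that gene's 3 untrypsinized arrays, with members grouped by subfamily along the x axis and groups told apart by colour. Mock sorted arrays of H1f6, H2bc8, H2bc9 and H2bc14 all lie above the untrypsinized arrays, and those of H2bc21 lie below them.

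The comparison of mock sorted with untrypsinized cells, which differ by both steps, showed the most member changes. Of the 30 members, 9 rose and 1 fell, against 21% and 18% of all genes, which is 39% either way. The members that rose were H1f6, H1f7, H2bc4, H2bc8, H2bc9, H2bc14, H2bc22, H3c4 and H4c9, and H2bc21 fell. Their share of 10 in 30 was not above the background. At an unadjusted p under 0.05, 14 were higher and 1 lower, against 49.3% of genes either way. In 17 members every mock sorted array was above every untrypsinized array and in 1 every array was below, against 52.1% of genes with groups that did not overlap (28.7% higher, 23.4% lower). The median log2 change of the members was 0.12, beside 0.05 over all genes. The sign turned with a common median for 14 of 30 members, none of them past the adjusted p. That scaling sets all arrays to a common median over every row. Under it 2 members rose (H1f6 and H2bc14) and 2 fell (H2bc21 and H3c15), against 6.18% and 34.1% of all genes. The member median was then -0.03 beside -0.09 for all genes.

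What the trypsin step does was asked by setting trypsinized against untrypsinized cells. Here 5 members rose (H1f6, H2bc8, H2bc9, H2bc14 and H4c9) and 1 fell (H2bc21), against 13.9% and 11.5% of all genes, or 25.4% either way. At an unadjusted p under 0.05, 9 were higher and 1 lower, against 39.7% of genes. Groups did not overlap for 10 members that were higher and 1 that was lower, against 44.4% of genes (25% higher, 19.4% lower). The median change was 0.08, beside 0.04 over all genes. With a common median over every row, 0 members rose and 1 fell, against 3.74% and 28.4% of all genes. The member median was then -0.05, beside -0.09 for all genes. The count of rises fell to 1 without trypsinized replicate 1 or 3, to 2 without untrypsinized replicate 2 or mock sorted replicate 2, and to 3 without untrypsinized replicate 1 or 3 or mock sorted replicate 1 or 3. The share of all genes that rose was lower in these fits too, at 7.82% to 13.6%. It was 7.93% and 7.94% without trypsinized replicate 1 or 3.

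What passage through the sorter adds was asked by setting mock sorted against trypsinized cells. By limma's adjusted p, 0 members rose and 0 fell with no minimum fold, against 4.67% of all genes (0.466% higher, 4.2% lower). At an unadjusted p under 0.05, 2 members were higher, H1f7 at 0.17 (SE 0.05, adjusted p = 0.137) and H2bc4 at 0.14 (SE 0.05, adjusted p = 0.174), against 17.2% of genes. Groups did not overlap for 3 members, all higher, against 24% of genes (9.74% higher, 14.3% lower). The median was 0.05, beside 0.002 over all genes. With a variance trend and robust moderation, or with only these 2 groups in the fit, 1 member passed, against 7.26% and 3.83% of all genes. These comparisons share arrays, so their member values are not independent of each other.

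**Figure D2:**
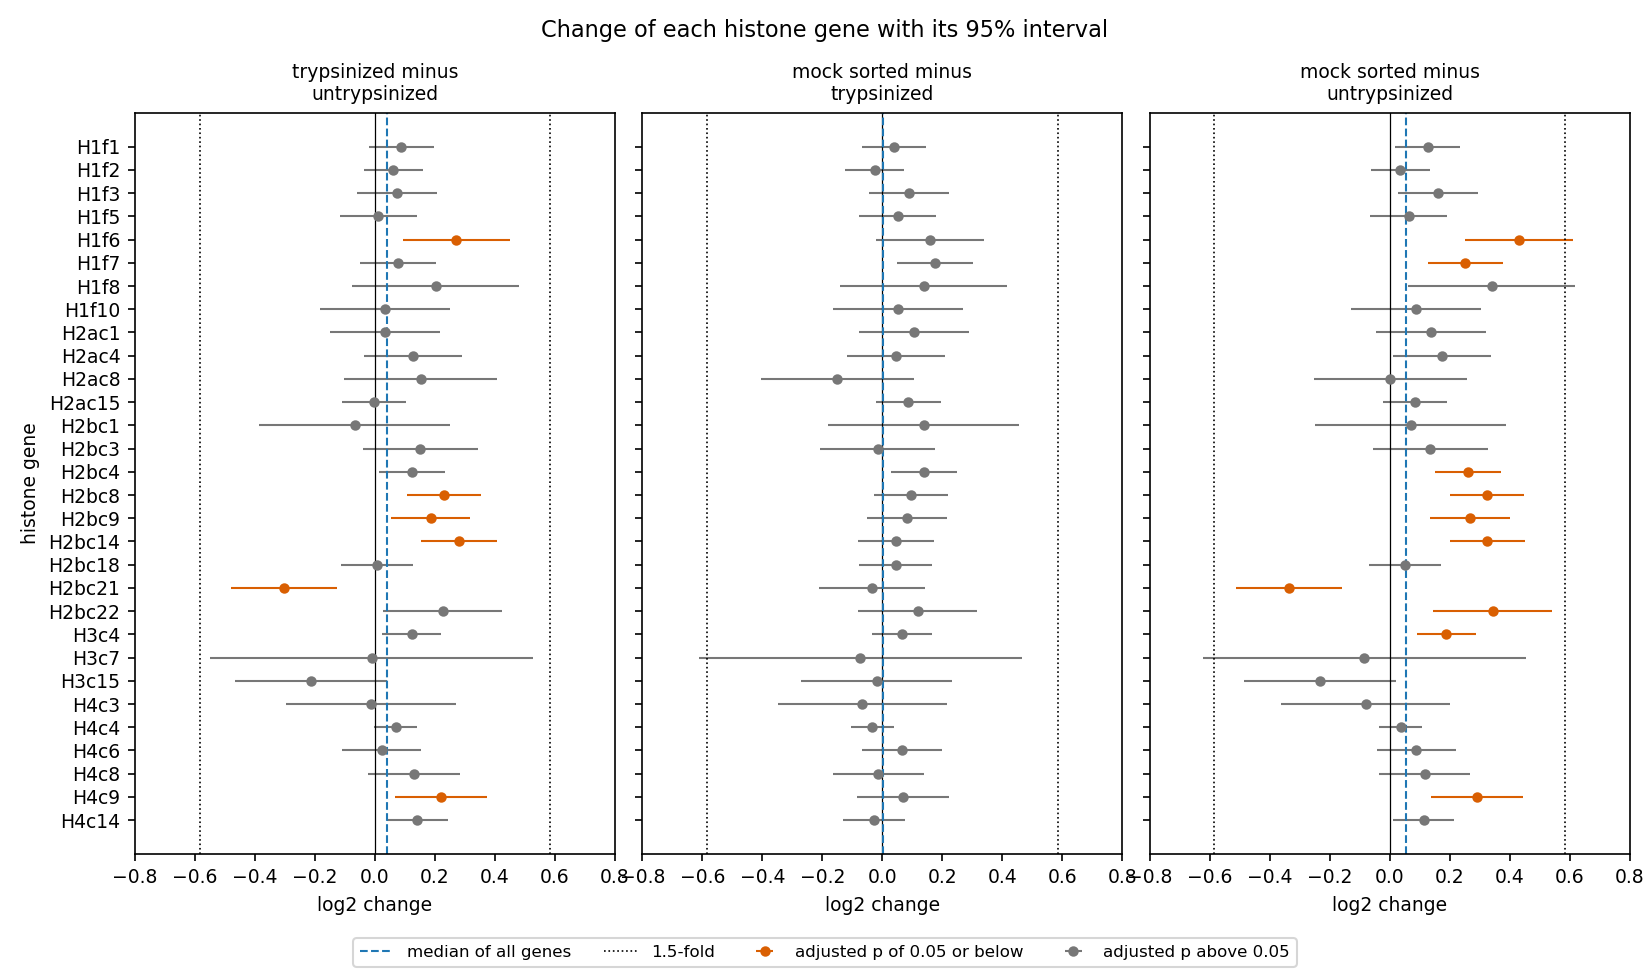
Points are log2 changes of the 30 histone genes in the 3 comparisons with 95% confidence intervals, the dashed line is the median of all genes and the dotted lines mark 1.5-fold. Members at an adjusted p of 0.05 or below number 6 after trypsin, 0 for the sort alone and 10 for both steps, and none of the points reaches 1.5-fold.

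H2B was the subfamily with the most members past the test. A moderated F test, which asks for any difference among the 3 groups, passed 6 of 9 H2B members, 2 of 8 for H1, 1 of 3 for H3, 1 of 6 for H4 and 0 of 4 for H2A, or 10 of 30 against 33.2% of all genes. Its count was 6 of 30 without mock sorted replicate 2 or 3. The share of all genes past the F test in those fits was not computed. By the adjusted p after both steps, 29% and 28.9% of all genes passed there, against 39% with all arrays. The difference between subfamilies was not tested. Median changes from untrypsinized to mock sorted cells were 0.26 for H2B, 0.14 for H1, 0.11 for H2A, 0.10 for H4 and -0.08 for H3. Setting arrays to a common median moves every gene by the same amount, so it could not alter the gaps between subfamilies. It put H2B at 0.11, H1, H2A, H4 and H3 at -0.01, -0.04, -0.05 and -0.23, and all genes at -0.09. With quantile normalization H2B was at 0.16, H1, H2A, H4 and H3 at 0.11, 0.08, 0.12 and -0.37, and all genes at -0.04.

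H2bc14, an H2B gene, read 11.84, 11.94 and 11.82 (log2 intensity) in untrypsinized, 12.21, 12.04 and 12.19 in trypsinized, and 12.21, 12.17 and 12.19 in mock sorted arrays. All treated arrays were above all untrypsinized arrays, and the 2 treated groups overlapped. It rose by 0.28 after trypsin (SE 0.05, 1.21-fold, adjusted p = 0.00913) and by 0.33 after both steps (SE 0.05, 1.25-fold, adjusted p = 0.00251). The rise after both steps kept an adjusted p of 0.0355 or below in all 18 other settings, and that after trypsin was lost only with a common median (0.15, adjusted p = 0.0805).

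H2bc8 read 11.03, 11.06 and 10.97 in untrypsinized, 11.27, 11.15 and 11.33 in trypsinized, and 11.39, 11.29 and 11.36 in mock sorted arrays. As for H2bc14, the treated arrays all lay above the untrypsinized ones. The gene rose by 0.23 after trypsin (SE 0.05, adjusted p = 0.0172) and by 0.32 after both steps (SE 0.05, 1.25-fold, adjusted p = 0.00229), but with a common median the latter was 0.18 (adjusted p = 0.0528). The rise after trypsin was lost with a common median. It was also lost without untrypsinized replicate 3 or trypsinized replicate 1 or 3, with an adjusted p of at most 0.0582 in these 3 fits.

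H2bc9 read 11.92, 11.90 and 11.77, then 12.13, 11.96 and 12.07, then 12.17, 12.09 and 12.14 in the same order of groups. It rose by 0.19 after trypsin (SE 0.06, adjusted p = 0.0487), a call lost with a common median and in 8 of 9 fits that left out an array. Its rise after both steps was 0.27 (SE 0.06, adjusted p = 0.00785), and 0.12 with a common median (adjusted p = 0.206). The groups did not overlap in either comparison with untrypsinized cells.

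H2bc4 read 12.66, 12.61 and 12.51 in untrypsinized, 12.75, 12.71 and 12.70 in trypsinized, and 12.87, 12.80 and 12.90 in mock sorted arrays. It was the only H2B member in which the 3 groups formed separate steps with no overlap. Its rise after both steps was 0.26 (SE 0.05, 1.20-fold, adjusted p = 0.00360), and 0.11 with a common median (adjusted p = 0.218).

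H2bc22 and H2bc21 were dim. The level used as a gauge was 8.20, the 95th percentile of 1027 olfactory receptor genes, which mammary cells are not known to use. It is no detection limit. H2bc22 read 6.69 to 6.84 in untrypsinized and 7.03 to 7.24 in mock sorted arrays, a rise of 0.34 (SE 0.09, adjusted p = 0.0156). The rise was lost with a common median and without untrypsinized replicate 1 (adjusted p = 0.0541 in the latter). After quantile normalization it was 0.10 (adjusted p = 0.342).

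H2bc21 encodes the variant H2BE, known from olfactory neurons, and moved the other way. It read 8.23, 8.10 and 8.09 in untrypsinized, 7.78, 7.78 and 7.95 in trypsinized, and 7.90, 7.66 and 7.85 in mock sorted arrays. Every treated array was below every untrypsinized one. It fell by 0.30 after trypsin (SE 0.08, 1.23-fold lower, adjusted p = 0.0243) and by 0.34 after both steps (SE 0.08, 1.26-fold lower, adjusted p = 0.0103). The second fall kept an adjusted p of 0.037 or below in the 17 other settings that gave a value, scalings included. The first was lost without untrypsinized replicate 1 or trypsinized replicate 1 or 2 (adjusted p up to 0.0793). All 3 group means were below the gauge, so the filter on dim genes left it out.

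The remaining H2B members did not pass in any comparison. H2bc3, H2bc18 and the testis gene H2bc1 changed by 0.13, 0.05 and 0.07 after both steps, each with the opposite sign under a common median, with adjusted p-values of 0.229, 0.453 and 0.710. Their 95% intervals were -0.06 to 0.33, -0.07 to 0.17 and -0.25 to 0.39, so a change of the size of H2bc14's lay inside the interval of H2bc1, at the upper end of that of H2bc3 and outside that of H2bc18.

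Among linker histones, the testis gene H1f6 had the largest change of any member. It read 8.52, 8.69 and 8.74 in untrypsinized, 8.91, 8.87 and 8.99 in trypsinized, and 8.94, 9.12 and 9.19 in mock sorted arrays. Untrypsinized arrays were the lowest without overlap, while the treated groups overlapped. H1f6 rose by 0.43 after both steps (SE 0.08, 1.35-fold, adjusted p = 0.00355), with 0.28 to 0.50 and an adjusted p of at most 0.0156 over the 18 other settings. Its rise of 0.27 after trypsin (SE 0.08, adjusted p = 0.0369) was lost under 8 of these, among them both other scalings.

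The spermatid gene H1f7 read 7.83, 8.03 and 8.03, then 8.04, 8.04 and 8.05, then 8.21, 8.21 and 8.22. The groups did not overlap, but untrypsinized and trypsinized arrays nearly met, at 8.030 and 8.036. The change after trypsin was 0.08 (SE 0.05, adjusted p = 0.325), and 0.01 without untrypsinized replicate 1. H1f7 rose by 0.25 after both steps (SE 0.05, adjusted p = 0.00817), but by 0.06 after quantile normalization (adjusted p = 0.239) and 0.10 with a common median (adjusted p = 0.110). H1f7 was also dim, with means of 7.96 and 8.04 in untrypsinized and trypsinized arrays, below the gauge of 8.20. Only its mock sorted mean of 8.21 was above the gauge, and the filter on dim genes kept it through that group alone. The oocyte gene H1f8 changed by 0.34 (SE 0.12, adjusted p = 0.0554) with its mock sorted arrays at 7.92 to 8.31 and all 3 group means below the gauge. The somatic linker histones H1f1, H1f2, H1f3 and H1f5 changed by 0.04 to 0.16 after both steps, and none passed. H1f1 at 0.13 (SE 0.05, adjusted p = 0.0645) and H1f3 at 0.16 (SE 0.06, adjusted p = 0.0580) came nearest. Their mock sorted arrays were all above the untrypsinized ones, and each gene passed under 4 of the 18 other settings. H1f2 had an interval of -0.06 to 0.13 after both steps.

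No H2A member passed in any comparison. H2ac4 read 10.71 to 10.84 in untrypsinized and 10.92 to 11.01 in mock sorted arrays without overlap, a change of 0.17 (SE 0.07, adjusted p = 0.0872). H2ac15 read 12.63 to 12.69 and 12.72 to 12.79 in these groups, a change of 0.08 (SE 0.05, adjusted p = 0.188), and the testis gene H2ac1 changed by 0.14 (SE 0.08, adjusted p = 0.201). H2ac8, at 5.93 to 6.44 on all arrays, was below the gauge in every group. In the trypsin comparison each of these 4 genes changed sign under quantile normalization or a common median.

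H3 and H4 each had a single member past the test. H3c4 read 12.00, 11.91 and 11.86, then 12.08, 12.01 and 12.05, then 12.12, 12.10 and 12.11, each group above the one before without overlap. It rose by 0.19 after both steps (SE 0.04, adjusted p = 0.0101), and the change was 0.04 with a common median (adjusted p = 0.669). H3c15 and H3c7 lay below the gauge in every group, and their changes of -0.23 (SE 0.11) and -0.08 (SE 0.23) did not pass (adjusted p = 0.127 and 0.794), although H3c15 passed as lower after quantile normalization (-0.42) and with a common median (-0.38).

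H4c9 read 9.18, 9.32 and 9.40 in untrypsinized, 9.63, 9.47 and 9.46 in trypsinized, and 9.56, 9.60 and 9.61 in mock sorted arrays. Treated and untrypsinized arrays did not overlap. It rose by 0.22 after trypsin (SE 0.07, adjusted p = 0.0440) and by 0.29 after both steps (SE 0.07, 1.22-fold, adjusted p = 0.0105). The first was lost under settings that included a common median, 8 of 9 fits that left out an array and the replicate number as a block (adjusted p = 0.0720). The second was lost only with a common median (0.14, adjusted p = 0.0515). H4c14 changed by 0.14 after trypsin (SE 0.04, adjusted p = 0.0505), just outside the threshold. The other H4 members, H4c3, H4c4, H4c6 and H4c8, changed by -0.08 to 0.12 after both steps, and H4c4 read 13.34 to 13.44 on all 9 arrays.

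**Figure D3:**
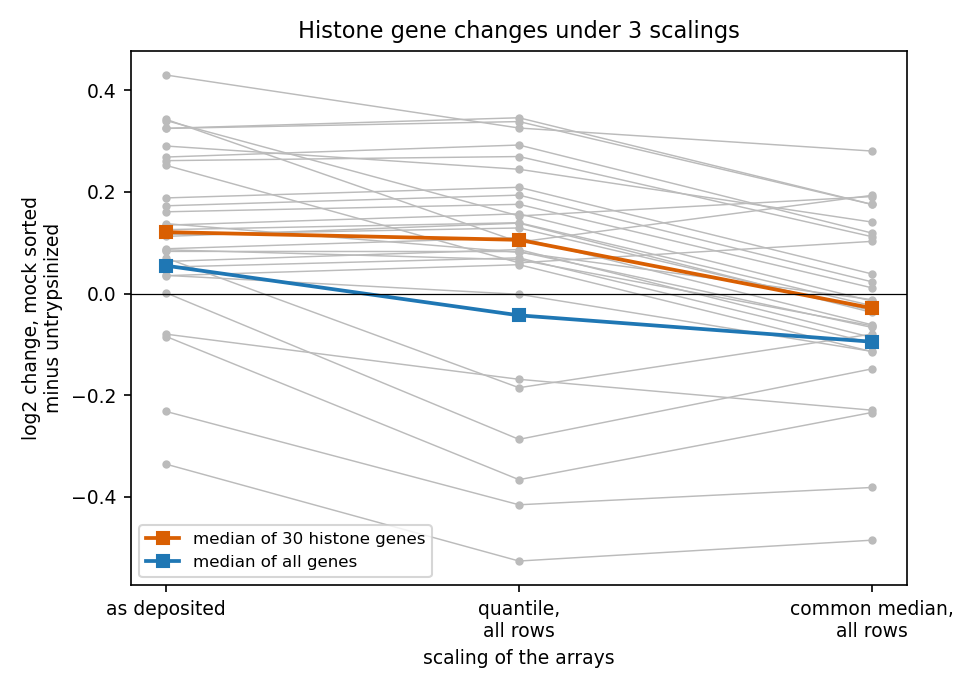
Grey lines are the log2 changes from untrypsinized to mock sorted cells of the 30 histone genes under the deposited scaling, quantile normalization and a common median over all rows, with the median of the members in orange and of all genes in blue. The member median goes from 0.12 to 0.11 and -0.03, and the median of all genes from 0.05 to -0.04 and -0.09. The members lie above all genes by 0.07, 0.15 and 0.07. The deposited and common median gaps are equal by construction, because a common median moves every gene by the same amount.

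The rows that name several copies of a subfamily gave values close to one another. The 7 H2B rows, 6 of them with distinct values and each naming 14 or 15 genes, were 0.13 to 0.16 higher in mock sorted than in untrypsinized cells. All 7 had an adjusted p between 0.0344 and 0.0499 over all rows, where 34.8% of rows passed. These rows share sequence and are not independent, 0 passed with a common median, and between 0 and 7 passed when an array was left out, with 0 in 6 of those 9 fits. After trypsin they were 0.11 to 0.12 higher and 0 passed. The 10 rows naming 12 H3 genes changed by -0.01 to 0.01 after both steps (lowest adjusted p = 0.833), and 2 H2A rows by 0.01 to 0.03. The 6 H4 rows changed by 0.01 to 0.17 and 0 passed. A row shared by H2bc6 and H1f4 was 0.22 higher (adjusted p = 0.0390), and 0.07 higher with a common median (adjusted p = 0.568). Renamed cluster genes that the name rule does not reach were H2bu2, H2aw and H4f16, with changes of 0.12, 0.03 and 0.16 after trypsin, of which only H4f16 passed (SE 0.04, adjusted p = 0.0253).

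For genes of S phase and division the counts stand beside 13.9% of all genes higher and 11.5% lower after trypsin, and 21% and 18% after both steps. Of 31 genes of DNA replication, 1 rose and 6 fell after trypsin, and 0 rose and 6 fell after both steps, with medians of -0.07 and -0.06. Of 19 mitosis genes, 0 rose and 9 fell after trypsin, and 1 rose and 6 fell after both steps, with medians of -0.17 and -0.12. Rrm2, a subunit of ribonucleotide reductase, fell by 0.23 after trypsin (SE 0.05, adjusted p = 0.0115). Tpx2, a spindle assembly factor, fell by 0.28 (SE 0.04, adjusted p = 0.00425), and the checkpoint kinase Bub1b fell by 0.27 (SE 0.04, adjusted p = 0.00487). With a common median 19 replication and 15 mitosis genes fell after trypsin, when 28.4% of all genes did. The list medians were below that of all genes as deposited and with quantile normalization. The quantile values after trypsin were -0.11 for replication and -0.21 for mitosis, beside -0.05 for all genes. A common median could not alter these gaps.

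Replacement histones, most of which are made throughout the cell cycle from polyadenylated messages, had 0 of 11 genes rising and 3 falling after trypsin, and 0 and 2 after both steps. This list holds the members H1f8 and H1f10. H2az2, an H2A.Z gene, read 11.75, 11.78 and 11.67 in untrypsinized, 11.41, 11.53 and 11.45 in trypsinized, and 11.46, 11.55 and 11.52 in mock sorted arrays. It fell by 0.27 after trypsin (SE 0.05, adjusted p = 0.00633) and by 0.22 after both steps (SE 0.05, adjusted p = 0.00752), and it passed under every setting run. Among 19 histone chaperones, 3 rose and 6 fell after trypsin and 5 rose and 7 fell after both steps. Chaf1b, a subunit of the chromatin assembly factor CAF-1, fell by 0.23 in both (SE 0.05).

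Genes of the machinery of histone messages passed the test in both directions, beside 25.4% of all genes after trypsin and 39% after both steps. In the 20 genes of histone message processing, 3 rose and 1 fell after trypsin, and 4 rose and 4 fell after both steps. Ncbp2, a subunit of the nuclear cap-binding complex, fell by 0.26 and 0.34 (SE 0.04, adjusted p = 0.00421 and 0.000517). Of 15 decay genes, 4 rose and 0 fell after trypsin and 4 rose and 1 fell after both steps. Smg1, the kinase that phosphorylates Upf1, rose by 0.40 and 0.53 (SE 0.06, adjusted p = 0.00430 and 0.000406) under every setting run, while Upf1 itself, a helicase needed for decay of histone messages, rose by 0.19 and 0.23 but not with a common median (0.05 and 0.08). Of 16 factors that control histone genes, 3 rose and 2 fell after trypsin and 4 rose and 2 fell after both steps, and E2f4, a repressor of cell cycle genes, rose by 0.25 and 0.26 (SE 0.04) except with a common median (0.11 and 0.12).

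Other RNAs without a poly(A) tail were set beside the histone genes. Of 8 such RNAs, 2 rose and 0 fell after trypsin. Terc, the telomerase RNA, rose by 0.57 (SE 0.08, adjusted p = 0.00197), and the spliceosomal RNA gene Rnu12 rose by 0.56 (SE 0.10, adjusted p = 0.00598), and both passed under every setting run. After both steps 2 rose and 2 fell. Of 54 small nucleolar RNA genes, 28 rose and 1 fell after trypsin, and 31 rose and 2 fell after both steps. Their medians were 0.25 and 0.31, and 0.11 and 0.16 with a common median. The difference between these genes and the histone members was not tested. Between trypsinized and mock sorted cells, 0 genes passed in each of the lists of replication, mitosis, replacement histones, chaperones, processing, decay, control factors and other RNAs without a tail. Of the 54 small nucleolar RNA genes, 2 were higher and 0 lower in mock sorted cells, against 0.466% and 4.2% of all genes.

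**Figure D4:**
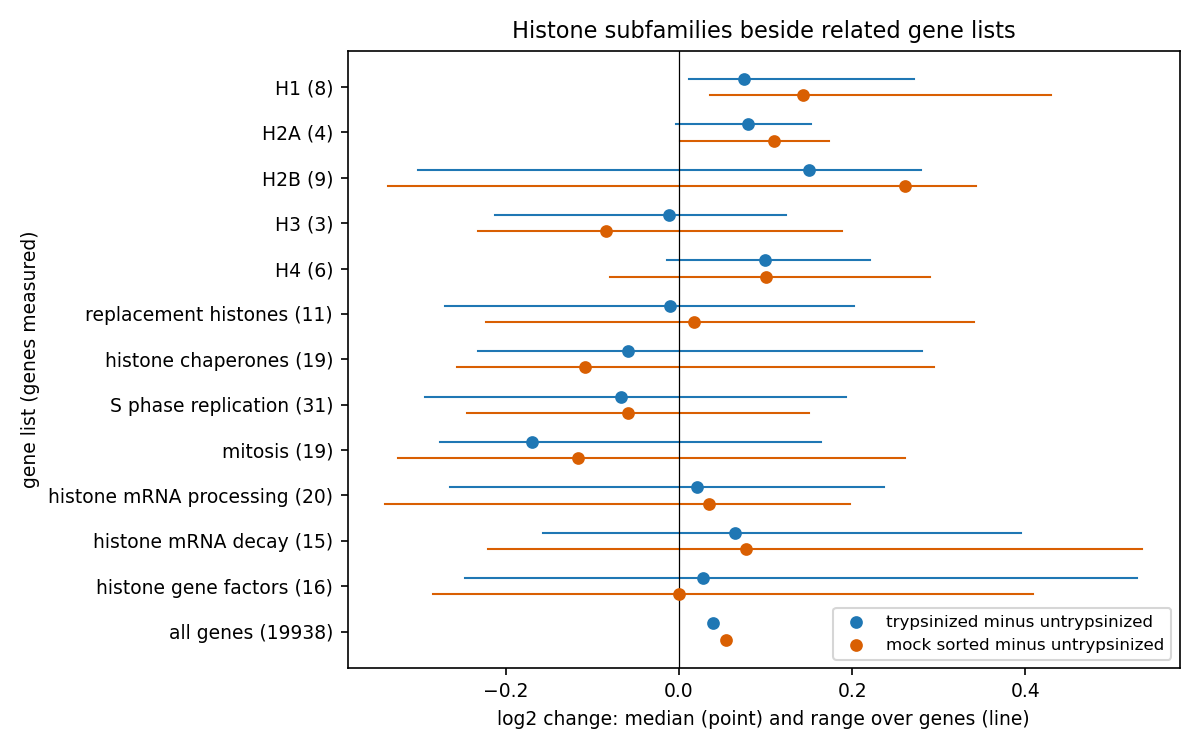
Points are median log2 changes of the 5 histone subfamilies and of related gene lists from untrypsinized to trypsinized (blue) and to mock sorted cells (orange), lines run from the lowest to the highest gene of each list, and all genes are shown by their median alone. Among the lists plotted, H2B has the highest medians, at 0.15 and 0.26, and mitosis the lowest, at -0.17 and -0.12, and the ranges of the plotted lists overlap. Small nucleolar RNAs and other RNAs without a tail are not plotted.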

How the data were processed

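The authors deposited linear array intensities, 1 value per row and array, for 35512 rows. The submitters' processing notes name limma. Not given in the sources used here are the background correction, the probe summary, the scaling between arrays and the build. Row names came from GEO's platform annotation, with symbols updated by gene number from RefSeq, and the row with the highest mean stood for each gene (19938 genes). Values were tested as log2(intensity + 1), so changes of dim genes are understated. All 9 arrays entered a single limma 3.58.1 fit (R 4.3.3) of 3 group means, with moderated variances and p-values adjusted by Benjamini-Hochberg across the 19938 genes. Rows naming several genes were fitted with all rows. Checks ran on simulated data. The call rule, an adjusted p of 0.05 or below and at least 1.5-fold, follows the design text, which does not say whether p was adjusted. The number of arrays limits the precision.

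Members and lists were chosen with earlier results of these data known. Members named were the 3 smallest F test p-values of each subfamily and the largest rise and fall of each comparison. Others, among them every member past the adjusted p, were named after their values were seen. From each list up to 3 genes with the smallest F test p-value could be named, and those printed are a selection made after their values were seen. Alternatives covered threshold, scaling, a filter on dim genes, row choice, a pseudocount of 16, variance model, array weights, arrays in the fit, a replicate block and leaving out each array. Counts with no minimum fold, and counts without H1f7, H1f8 and H1f10, were added after seeing the data.

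Between a trypsinized array and the mock sorted array of its number, departures from the group means had correlations over genes of 0.53, 0.29 and 0.29, so the numbers were taken to pair these arrays. This pairing comes from the values, not the labels.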

Additional observations from a re-analysis of the deposited data

How the results depend on the processing

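At an adjusted p of 0.05 or below with at least 1.5-fold, 0 of 30 members were called in every setting that kept the minimum fold. With no minimum fold the counts were 5 higher and 1 lower after trypsin, 0 and 0 for the sort alone, and 9 higher and 1 lower after both steps. Against these, a common median over all rows gave 0 higher after trypsin, and 2 higher and 2 lower after both steps. Of all genes, 3.74% were then higher after trypsin, and 6.18% higher and 34.1% lower after both steps. Quantile normalization gave 2 lower after both steps, against 22.7% of all genes. Trend and robust variance gave 9 higher after trypsin, 1 for the sort and 14 after both steps, against 15.8%, 1.18% and 22.2% of all genes. Only the 2 groups compared gave 3 higher after trypsin and 1 for the sort, against 10.7% and 0.376% of all genes. The filter on dim genes gave 0 lower after trypsin and after both steps, because H2bc21 was left out. Of the genes that it kept, 19.4% and 26.7% were lower. Leaving out 1 array gave 1 to 6 higher and 0 to 1 lower after trypsin, 0 to 1 higher for the sort, and 9 to 11 higher after both steps. In the same order, the shares of all genes were 7.82% to 13.6%, 7.09% to 10.9%, 0.125% to 0.552% and 13.9% to 20.7%. The F test count of 10 was 2 with a common median and 6 to 11 with an array left out. The shares of all genes past the F test in these fits were not computed. Member medians were -0.052 after trypsin and -0.029 after both steps with a common median, and 0.079 to 0.14 after trypsin, 0.033 to 0.079 for the sort and 0.11 to 0.14 after both steps with an array left out. The cause of the other shifts was not tested. Without H1f7, H1f8 and H1f10 the counts were 5 and 1 after trypsin and 8 and 1 after both steps.

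With the replicate block, 4 members were higher and 1 lower after trypsin, 0 and 0 for the sort, and 9 and 1 after both steps. The shares of all genes were 14.6% and 10.9%, 0.341% and 3.89%, and 22.4% and 17.7%. H4c9 lost its trypsin call (adjusted p = 0.0720). Same-numbered arrays correlated at 0.11, 0.04 and -0.04 between trypsinized and untrypsinized, and at 0.32, 0.18 and 0.06 between mock sorted and untrypsinized cells, so the numbers were not taken to pair those groups.

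Over all 30 members, the sign turned with a common median for 14 after trypsin and 14 after both steps, and with quantile normalization for 6 and 3. None of these had an adjusted p of 0.05 or below, but with a common median 2 in each comparison had an unadjusted p under 0.05, H2bc4 and H3c4 after trypsin and H1f1 and H4c14 after both steps. The values that follow are for the genes that the naming rule chose. With a common median the trypsin changes were -0.057 for H1f7, -0.10 for H2ac1, -0.0076 for H2ac4, -0.011 for H2bc4, -0.011 for H3c4 and -0.065 for H4c4. The changes after both steps were -0.012 for H2ac1, -0.067 for H2ac15, -0.15 for H2ac8, -0.037 for H4c14, -0.11 for H4c4 and -0.013 for the processing gene Cpsf1, which had passed at 0.14. With quantile normalization the trypsin changes were -0.080 for H1f7, -0.045 for H2ac1, 0.0027 for H2ac15 and -0.061 for H2ac8, and those after both steps were -0.29 for H2ac8 and -0.0015 for H4c4. Array weights gave 0.00096 for H2ac15 after trypsin. Leaving out 1 array turned the sign of 9 members after trypsin, 10 for the sort and 4 after both steps, none of them past an unadjusted p of 0.05. Among the genes of the rule these were H2ac1, H2ac15 and H3c7 after trypsin, with ranges of -0.035 to 0.095, -0.042 to 0.036 and -0.23 to 0.18. For the sort alone they were H2ac4 (-0.035 to 0.092), H2bc14 (-0.0096 to 0.077), H2bc21 (-0.083 to 0.037), H3c15 (-0.11 to 0.082), H3c7 (-0.27 to 0.093) and H4c14 (-0.056 to 0.0059). After both steps they were H2ac8 (-0.060 to 0.11) and H3c7 (-0.30 to 0.083).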
